A study of Mus musculus with 6 samples.

Results

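The genes described here are 10 that osteoclasts, the large multinucleate cells that dissolve bone, use to fuse, to acidify the bone surface and to digest its matrix: Acp5, Ctsk, Calcr, Dcstamp, Ocstamp, Atp6v0d2, Tcirg1, Clcn7, Ostm1 and Car2. They were chosen by name, and all 10 were found once each among the 43346 genes of the count table. Each gene passed the filter on low counts, so all 10 were among the 18757 genes tested. RNA-seq libraries came from femurs of C57BL/6 mice aged 4 months, for which the labels name no transgene or deletion, and the RNA came from homogenized bone with its marrow, muscle removed. In the radiated group (3 libraries) the right femur had received 24 Gy of focal X-rays at 6.6 Gy per minute to 5 mm of its distal metaphysis, where the shaft widens towards the knee. In the non-radiated group (3 libraries) the same region came from the left femur, which was outside the beam but belonged to radiated mice, so no femur of an unexposed mouse entered the comparison. All bones were taken on day 21, ahead of bone loss that the submitters saw on day 28. The labels do not say whether the 3 libraries of a group came from separate mice, and p-values measure the spread between these libraries.

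An osteoclast attaches to bone and seals off the space beneath it. Carbonic anhydrase II makes protons from carbon dioxide and water, a vacuolar proton pump (V-ATPase) of the ruffled membrane moves them out, and the chloride-proton exchanger ClC-7 with its subunit Ostm1 balances the charge. The acid dissolves mineral, and cathepsin K then cuts the exposed collagen. The cell itself arises by fusion of macrophage-lineage precursors under the cytokines M-CSF and RANK ligand. Loss of the pump, the exchanger, Ostm1, carbonic anhydrase II or cathepsin K is known to give dense, poorly resorbed bone.

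Library totals ran from 34034251 to 48708383 gene counts. In non-radiated library 2 a single row, AY036118, took 32.9% of the counts, against 0.321% to 5.61% in the others, which left less depth for its other genes. The tissue label was met by the bone matrix gene Col1a1, at 5233 ± 1068 CPM (the usual counts-per-million unit, with library sizes scaled by the trimmed mean of M-values, TMM) in non-radiated and 3419 ± 399 CPM in radiated libraries (mean ± SD, n = 3 each). Megakaryocyte markers were lower in radiated femur (10 of 10 called, median log2 fold change -1.46), and adipocyte and B cell markers were higher (10 of 10 called in each, medians 3.09 and 0.76). Summed skeletal muscle markers ran from 165 to 338 CPM in non-radiated libraries and from 190 to 2366 CPM in radiated ones. In such bulk tissue fewer cells of a type and less RNA per cell cannot be told apart.

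Of the 10 effector genes, Atp6v0d2 alone was called different between the groups, and it was higher in radiated femur. Of the other 9, which were not called, 6 had a positive and 3 a negative estimate. A gene was called when its Benjamini-Hochberg adjusted p over all 18757 genes was under 0.05 in edgeR's quasi-likelihood test, and 7.8% of all genes met this. With 1 of 10 called, the effectors were near that background. In the higher direction 1 of 10 was called, against 4.56% of all genes. In the lower direction edgeR called 0 of 10, against 3.24% of all genes, with 2 at an unadjusted p under 0.05 (Ostm1 and Car2), both of which DESeq2's Wald test called. Radiated and non-radiated values were fully separated for 3 of the 10 (Atp6v0d2, Clcn7 and Ostm1), against 25.9% of all genes, which is also close. At an unadjusted p under 0.05 the set held 5 of 10, against 21.5% of all genes. The median log2 fold change (radiated minus non-radiated) of the 10 was 0.09, and that of all genes tested was 0.00. No effector was called on leaving out 1 of non-radiated libraries 1 and 2 or of radiated libraries 1 and 3, and 4 were called without non-radiated library 3 (Atp6v0d2, Tcirg1, Clcn7 and Ostm1).

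**Figure D1:**
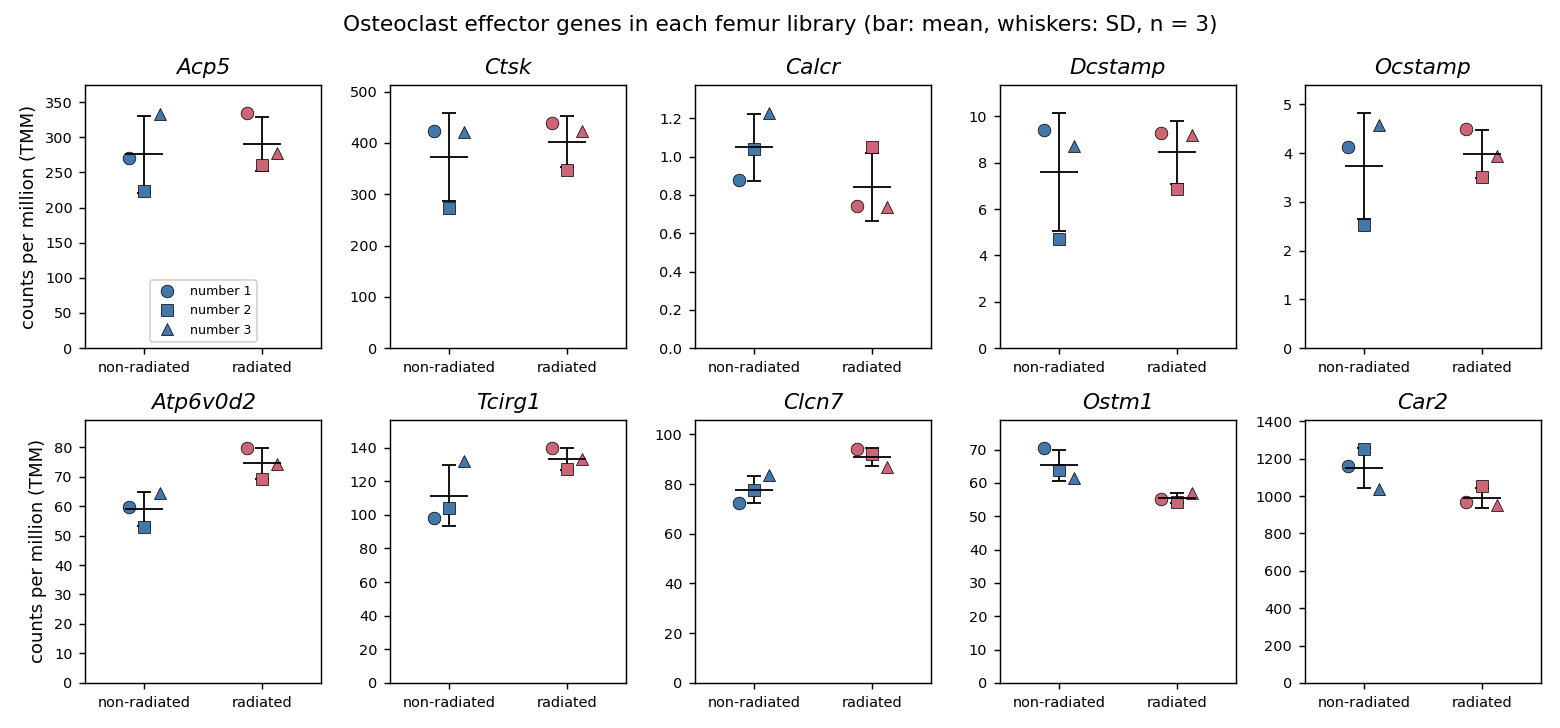
Each panel plots 1 gene, with TMM-scaled CPM on the vertical axis and 1 point per library, its shape giving the replicate number in the labels; bars are means and whiskers SD (n = 3). In the Atp6v0d2 panel the radiated libraries, at 69.3 to 79.8 CPM, all lie above the non-radiated ones, at 52.9 to 64.6 CPM, while the panels of Acp5 and Ctsk overlap.

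Among the genes of acid secretion the proton pump subunit Atp6v0d2 rose. Atp6v0d2 (ENSMUSG00000028238, chromosome 4, 19876841 to 19922605, mm10) encodes the d2 subunit of the pump's membrane sector, a form enriched in osteoclasts and also implicated in precursor fusion. It stood at 59.6, 52.9 and 64.6 CPM in libraries 1, 2 and 3 of the non-radiated group and at 79.8, 69.3 and 74.4 CPM in those of the radiated group. All radiated values were above all non-radiated ones. The change was 1.26-fold (95% interval 1.11 to 1.43), or 0.33 on the log2 scale (SE 0.08, adjusted p 0.0396 by edgeR). Within the numbers 1, 2 and 3 the log2 differences were 0.42, 0.39 and 0.20. The call was kept with the replicate number as a block (adjusted p 0.0176), and over all settings the adjusted p ran from 0.00438 to 0.176. It was lost under library totals alone (0.51 on the log2 scale, adjusted p 0.176), a scaling that moved the median of all genes to 0.19 and the share of higher genes among all calls from 58.5% to 85.4%. It was also lost without non-radiated library 1 (adjusted p 0.107), non-radiated library 2 (0.145), radiated library 1 (0.146) or radiated library 3 (0.0771), with log2 fold changes of 0.25 to 0.34 in those 4 fits. Of 12 macrophage markers 6 were called higher and 2 lower, with a median log2 fold change of 0.39. The part of macrophages in the Atp6v0d2 estimate was not tested.

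Tcirg1 (ENSMUSG00000001750, chromosome 19, 3896050 to 3907133) encodes a3, the large membrane subunit that places the pump in the ruffled border. Its level was 98.4, 104 and 132 CPM in the non-radiated libraries and 140, 127 and 133 CPM in the radiated ones. Non-radiated library 3 sat inside the radiated range, so the groups overlapped. The estimate was 1.20-fold (95% interval 1.02 to 1.40, log2 fold change 0.26, SE 0.10) and was not called (edgeR adjusted p 0.179). Without non-radiated library 3 it was called, at 0.39 on the log2 scale (adjusted p 0.00974, edgeR).

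Clcn7 and Ostm1, whose products form 1 exchanger, had estimates of opposite sign. Clcn7 (ENSMUSG00000036636, chromosome 17, 25133391 to 25162104) measured 72.3, 77.6 and 83.5 CPM without radiation and 93.9, 92.0 and 86.9 CPM with it. The radiated libraries were all above the others, at 1.17-fold (95% interval 1.06 to 1.29, edgeR log2 fold change 0.22, SE 0.06, adjusted p 0.0677). Ostm1 (ENSMUSG00000038280, chromosome 10, 42583822 to 42702459) measured 70.5, 63.8 and 61.5 CPM without radiation and 55.1, 54.1 and 57.0 CPM with it. Here all radiated libraries were below the others, at 0.849-fold (95% interval 0.768 to 0.938, edgeR log2 fold change -0.24, SE 0.06, adjusted p 0.0564). Neither was called, and each became a call in 3 of 13 alternatives: with no filter, by DESeq2's Wald test and without non-radiated library 3 (adjusted p 0.0329 for Clcn7 and 0.0477 for Ostm1). An antisense gene in Ostm1, Gm15200, had 0 counts in all 6 libraries. The counted Ostm1 gene begins 95094 bases before its RefSeq start, and the share of its counts from that stretch was not measured.

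The promoters of this pair are shown because their estimates had opposite signs, as the 250 bases before the RefSeq start (GRCm38.p6, the same assembly as mm10). Capitals mark CACGTG or CATGTG, the letters that MITF and TFEB, regulators of osteoclast and lysosomal genes, are known to bind, searched on both strands. CACGTG was found in 6.02% and CATGTG in 12.3% of all 32851 windows of this length in the RefSeq table. Clcn7 has 2 starts in the RefSeq table. The window drawn, chr17:25133141-25133390 on the plus strand, is that of the start at 25133391 and holds CACGTG 15 bases before it. The window of the other start, at 25136631, holds CATGTG 41 bases before that start and is not drawn. The Ostm1 window is chr10:42678666-42678915 on the plus strand, 95094 bases from the gene start of the count table, and none of these letters occurs in it. The longer TCACGTGA, which contains CACGTG (0.785% of windows), and TGANTCA, the letters bound by AP-1 (6.75%), occurred in none of the 12 windows found for 6 of the 10 genes.
Clcn7: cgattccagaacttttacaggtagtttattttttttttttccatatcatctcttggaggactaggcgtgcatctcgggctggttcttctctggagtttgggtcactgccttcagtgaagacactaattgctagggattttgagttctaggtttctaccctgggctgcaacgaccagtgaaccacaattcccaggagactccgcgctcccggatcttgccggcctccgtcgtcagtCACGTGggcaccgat
Ostm1: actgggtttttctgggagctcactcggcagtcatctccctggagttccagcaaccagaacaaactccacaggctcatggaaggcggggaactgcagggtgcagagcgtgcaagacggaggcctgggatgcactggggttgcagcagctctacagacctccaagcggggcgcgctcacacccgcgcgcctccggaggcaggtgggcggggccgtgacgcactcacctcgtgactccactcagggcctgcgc

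Car2 was the most abundant of the 10, and its estimate was negative. Car2 (ENSMUSG00000027562, chromosome 3, 14886273 to 14900770) encodes cytosolic carbonic anhydrase II, which red cell precursors also hold in quantity. Its CPM were 1161, 1253 and 1039 without radiation and 966, 1052 and 952 with it. Radiated library 2 lay above non-radiated library 3, so the groups overlapped, although within each number the radiated library was lower, by 0.26, 0.25 and 0.13 on the log2 scale as absolute differences. The fitted ratio was 0.860 (95% interval 0.752 to 0.984, edgeR log2 fold change -0.22, SE 0.09, adjusted p 0.182), with a call in 1 of 13 alternatives, DESeq2's Wald test (adjusted p 0.0350). Of 12 erythroid markers 11 had negative estimates and 1 was called lower, Car1, which is also among the carbonic anhydrase genes described below. DESeq2's Wald test called 3 and the replicate block 2. On leaving out radiated library 1 or either of non-radiated libraries 1 and 2, 0 were called. None of these markers was at 0 in all libraries. Their sum ran from 7877 to 8735 CPM in non-radiated and from 7332 to 8242 CPM in radiated libraries. The part of the erythroid cells in the Car2 estimate was not tested.

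The secreted enzymes Ctsk and Acp5 were high in every library and overlapped between the groups. Ctsk (ENSMUSG00000028111, chromosome 3, 95499286 to 95509362) encodes cathepsin K, the collagen-cutting protease of the resorption space. Its level was 423, 274 and 421 CPM in the non-radiated and 439, 347 and 423 CPM in the radiated libraries. Library 2 was the lowest of each group, and the other 4 lay within 421 to 439 CPM. The ratio of the groups was 1.08 (95% interval 0.843 to 1.38, edgeR log2 fold change 0.11, SE 0.16, adjusted p 0.753). Acp5 (ENSMUSG00000001348, chromosome 9, 22126731 to 22135746) encodes tartrate-resistant acid phosphatase, the classical stain for osteoclasts. It reached 270, 224 and 333 CPM in the non-radiated and 334, 261 and 278 CPM in the radiated libraries. The highest library of each group had nearly the same level, and the ratio was 1.05 (95% interval 0.848 to 1.31, edgeR log2 fold change 0.08, SE 0.14, adjusted p 0.813). Without non-radiated library 2 both estimates turned negative, at -0.08 for Ctsk and -0.07 for Acp5, and that of Acp5 was also negative without radiated library 1 (-0.04).

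Their promoters are shown because Ctsk and Acp5 were the most abundant of the 10 genes after Car2. Ctsk has 1 start in the RefSeq table and its window, chr3:95498960-95499209 on the plus strand, holds neither CACGTG nor CATGTG. Acp5 has 3 starts. The window drawn, chr9:22130599-22130848 on the minus strand, is that of the start at 22130598, 5148 bases from the gene start of the count table. It is the only one of the 3 with such letters. Capitals in it mark TCACATGA, 91 bases before the start, which is the reverse complement of TCATGTGA and holds CATGTG on the other strand. TCATGTGA was present in 0.846% of all windows. That is the rate for 1 window and 1 string of letters, while several strings were searched in 12 windows. The table does not say which start these libraries used, and a match of letters is not a measured binding site.
Ctsk: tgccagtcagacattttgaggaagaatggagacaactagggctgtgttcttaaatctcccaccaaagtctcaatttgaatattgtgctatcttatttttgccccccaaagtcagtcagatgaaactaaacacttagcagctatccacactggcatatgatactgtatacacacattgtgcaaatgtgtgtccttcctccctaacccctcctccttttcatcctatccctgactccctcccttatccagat
Acp5: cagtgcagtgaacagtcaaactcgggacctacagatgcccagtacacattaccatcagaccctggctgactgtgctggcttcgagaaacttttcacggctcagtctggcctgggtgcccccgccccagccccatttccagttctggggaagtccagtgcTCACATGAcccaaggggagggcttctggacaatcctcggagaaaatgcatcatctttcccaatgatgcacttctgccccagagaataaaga

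The fusion genes were expressed at low levels and, like Ctsk and Acp5, were lowest in library 2 of each group. Dcstamp (ENSMUSG00000022303, chromosome 15, 39745932 to 39760934) encodes DC-STAMP, a membrane protein required for precursors to fuse. Its level was 9.41, 4.71 and 8.71 CPM in the non-radiated and 9.30, 6.87 and 9.19 CPM in the radiated libraries, from 118 to 410 counts. Ocstamp (ENSMUSG00000027670, chromosome 2, 165393760 to 165400405), which encodes the related fusion protein OC-STAMP, was at 4.11, 2.51 and 4.58 CPM in the non-radiated and 4.49, 3.50 and 3.94 CPM in the radiated libraries, from 63 to 194 counts. For both genes library 2 was the lowest of its group and the groups overlapped. The ratios were 1.10 for Dcstamp (95% interval 0.764 to 1.59, edgeR log2 fold change 0.14, SE 0.23, adjusted p 0.795) and 1.05 for Ocstamp (95% interval 0.755 to 1.47, edgeR log2 fold change 0.07, SE 0.21, adjusted p 0.883). Differences within these intervals, in either direction, are not excluded by these libraries. Without non-radiated library 2 the log2 fold changes were -0.12 and -0.14, and that of Ocstamp was -0.02 without radiated library 1.

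**Figure D2:**
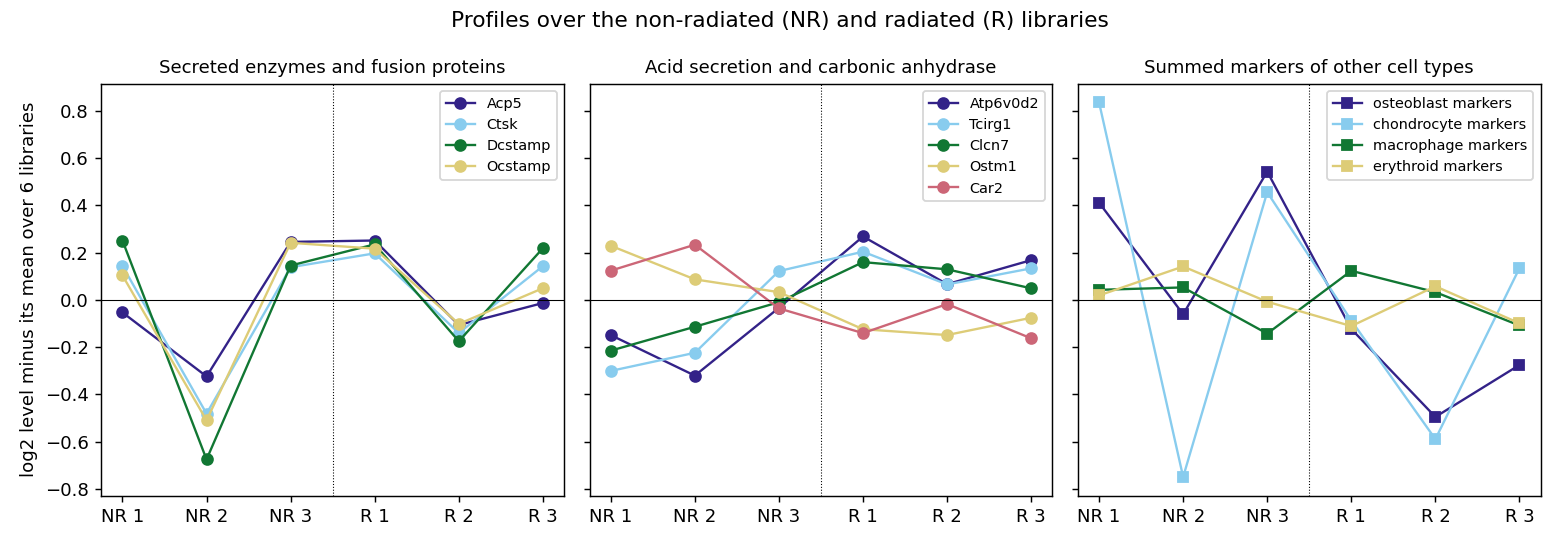
The vertical axis gives the log2 level minus its mean over the 6 libraries, for Acp5, Ctsk, Dcstamp and Ocstamp (left), for the acid secretion genes and Car2 (middle) and for summed markers of 4 other cell types (right). Non-radiated library 2 is the low point for all 4 genes on the left, from -0.68 for Dcstamp to -0.32 for Acp5, and for chondrocyte markers on the right.

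In non-radiated library 2 markers of other bone cells were also low. Summed osteoblast markers stood at 8259 CPM there, against 11458 and 12552 CPM in libraries 1 and 3 of that group and 6109 to 7908 CPM after radiation. Summed chondrocyte markers stood at 167 CPM there, against 502 and 386 CPM in libraries 1 and 3 and 187 to 308 CPM in the radiated ones. All 12 osteoblast and 9 chondrocyte markers were detected. Their part in the low Ctsk, Acp5, Dcstamp and Ocstamp of that library was not tested. Atp6v0d2 was lowest in that library too, while Car2 was highest there, at 1253 CPM.

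Calcr was close to the limit of detection. Calcr (ENSMUSG00000023964, chromosome 6, 3685677 to 3764713) encodes the calcitonin receptor, through which the hormone calcitonin halts resorption. It had 32, 26 and 52 counts in the non-radiated and 28, 56 and 33 counts in the radiated libraries, or 0.878, 1.04 and 1.23 CPM against 0.740, 1.05 and 0.739 CPM. The groups overlapped, with a ratio of 0.808 (95% interval 0.553 to 1.18, edgeR log2 fold change -0.31, SE 0.24, adjusted p 0.526), and the estimate was negative in all 12 alternatives that gave a value. The microRNA genes Mir653 and Mir489 inside it had 0 and 2 counts over all libraries. Quiescent muscle satellite cells also express this receptor. Their marker Pax7 had 1 to 8 counts and Myf5 0 to 5 counts in a library. Of the 7 listed satellite cell markers 3 were tested, and 1 was called higher and 1 lower (median log2 fold change 0.24). That share is 66.7% of only 3 genes, against 7.8% of all genes. The sum of the list ran from 373 to 466 CPM in non-radiated and from 507 to 535 CPM in radiated libraries. It includes Vcam1, which is also a listed macrophage marker. The part of satellite cells in the Calcr value was not tested.

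**Figure D3:**
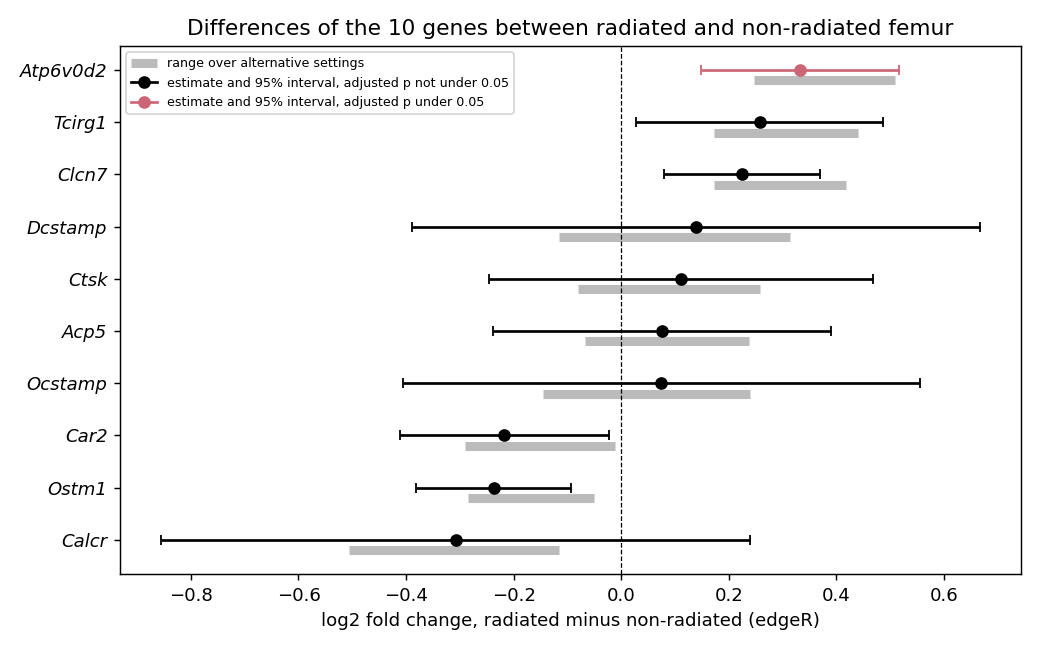
Points are log2 fold changes of the 10 genes (radiated minus non-radiated, horizontal axis) with 95% intervals from edgeR, and grey bars span the estimates over the alternative settings. Atp6v0d2, drawn in red, is the only called gene, at 0.33, and the grey bars of Acp5, Ctsk, Dcstamp and Ocstamp cross 0.

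Per kilobase of gene length the 10 genes covered more than 3 orders of magnitude. The level is given as CPM per kilobase, using the length column of the count table. Car2 was highest with a median of 432 over the 6 libraries (393 to 517), followed by Ctsk at 285 (185 to 296) and Acp5 at 170 (139 to 207). Tcirg1 had a median of 29.0 (22.0 to 31.3) and Atp6v0d2 of 24.6 (19.5 to 29.4). Below them came Clcn7 at 16.1 (13.7 to 17.8), Ostm1 at 8.21 (7.51 to 9.78), Dcstamp at 4.49 (2.36 to 4.72), Ocstamp at 1.10 (0.688 to 1.25) and Calcr at 0.245 (0.189 to 0.314). The ranges of Ctsk and Acp5 overlapped, as did those of Tcirg1 and Atp6v0d2, although the first of each pair was higher in each of the 6 libraries. No other neighbours in this order overlapped. The exchanger subunit Clcn7 therefore exceeded its partner Ostm1 per length in each library, though the 7211-base length of Ostm1 in the table lowers its value.

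Ratios of counts inside a library need no scaling between libraries, and 6 were compared by exact permutation, chosen after the values of the genes had been seen. For Clcn7 over Ostm1 the ratio was 1.03, 1.22 and 1.36 in the non-radiated libraries and 1.71, 1.70 and 1.53 in the radiated ones. The groups did not overlap, and the mean log2 ratio was 0.25 ± 0.20 without and 0.71 ± 0.09 with radiation (SD, n = 3 each; 1.38-fold, two-sided exact permutation p 0.1, adjusted 0.3 over the 6 ratios). With 3 libraries against 3, p 0.1 is the smallest this test can give. All radiated values were above the others for Clcn7 and below them for Ostm1. The separation of their ratio and its p were therefore fixed beforehand and add no evidence. Atp6v0d2 over Atp6v0d1, its ubiquitous counterpart, was 0.986, 0.790 and 1.03 in the non-radiated and 1.25, 1.04 and 1.28 in the radiated libraries. These values did not overlap, by a narrow margin (log2 difference 0.35, exact permutation p 0.1, adjusted 0.3). Atp6v0d2 alone was already separated in this direction when the ratio was chosen, so the ratio adds no independent evidence. Tcirg1 over Atp6v0a1, the ubiquitous a subunit, overlapped between groups (log2 difference 0.27, exact permutation p 0.2, adjusted 0.4). For Ctsk over Acp5 and Dcstamp over Ocstamp the log2 differences were 0.05 and 0.07 (exact permutation p 0.6 and 0.5, adjusted 0.6 for both). The last ratio, Atp6v0d2 over Ctsk, differed by 0.20 (exact permutation p 0.3, adjusted 0.45).

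**Figure D4:**
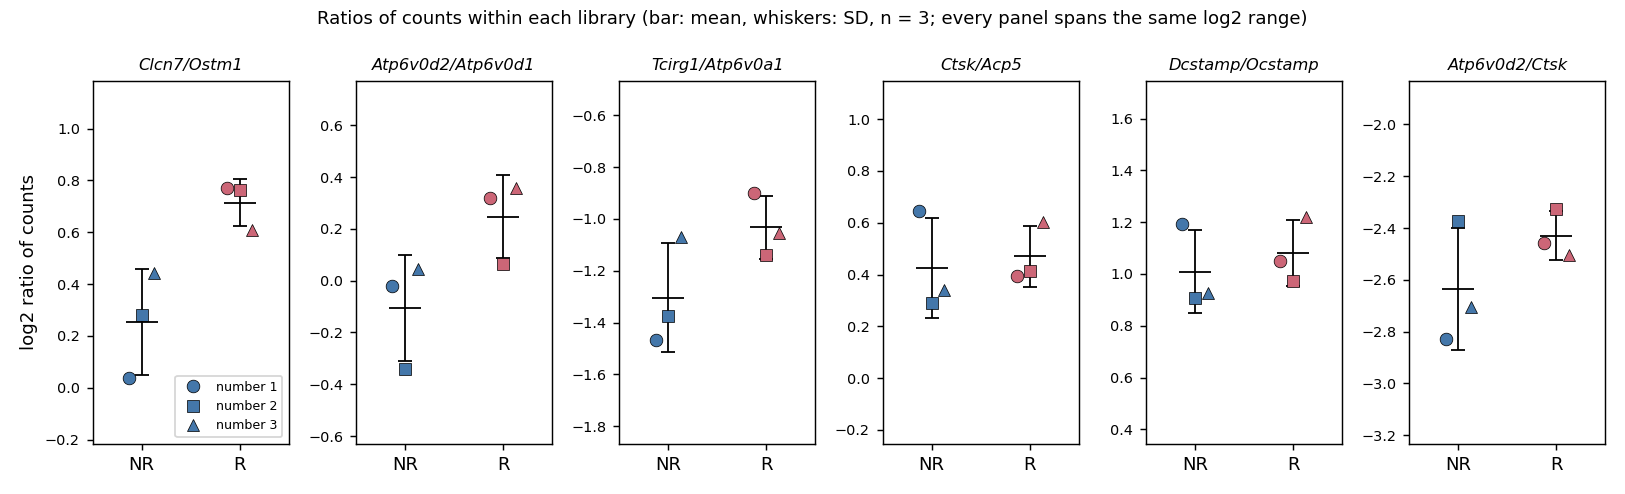
Log2 ratios of counts of 2 genes within a library, 1 point per library, with means and SD (n = 3) for non-radiated (NR) and radiated (R) femur; all panels span the same range. The radiated points of Clcn7/Ostm1 lie between 0.61 and 0.77, above the non-radiated points at 0.04 to 0.44, and those of Ctsk/Acp5 overlap.

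No other subunit of the proton pump was called beside Atp6v0d2. Of 23 listed V-ATPase genes 20 were tested and none was called by edgeR's quasi-likelihood test, 1 had an unadjusted p under 0.05, and DESeq2's Wald test also called none. With no filter, with the replicate block or with library totals alone 1 was called. Their median log2 fold change was 0.04. The most abundant per length were Atp6v1e1, Atp6ap1 and Atp6v1g1, a catalytic-sector stalk subunit, an accessory protein and another stalk subunit, with log2 fold changes of -0.05, 0.08 and -0.01 (edgeR adjusted p 0.618, 0.492 and 0.953). Atp6v0d1 was at -0.01 relative to non-radiated femur in log2 (SE 0.07, edgeR adjusted p 0.949). Atp6v0e2 had the smallest p, at 0.302 to 0.439 CPM in non-radiated and 0.528 to 1.52 CPM in radiated libraries (edgeR log2 fold change 1.41, SE 0.45, adjusted p 0.0994), and next came Atp6v1f (0.19, adjusted p 0.321).

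Of 17 other protease genes tested, which are lysosomal or granule proteases except for the matrix metalloproteinases Mmp9 and Mmp14, 6 rose and 1 fell. The share called was 41.2%, against 7.8% of all genes, and the median log2 fold change was 0.25. The risers called were Lgmn, which encodes the asparagine-cutting protease legumain, Ctsd, Ctss, Ctsa, Ctsc and Ctso, with log2 fold changes of 0.26 to 0.41. Ctsd, the gene of the aspartic protease cathepsin D, was at 643, 695 and 663 CPM in the non-radiated and 936, 925 and 799 CPM in the radiated libraries (edgeR log2 fold change 0.41, SE 0.08, adjusted p 0.0134). Ctsg, the gene of a neutrophil granule protease, fell, from 94.5 to 104 CPM in the non-radiated to 68.3 to 78.2 CPM in the radiated libraries (edgeR log2 fold change -0.44, SE 0.07, adjusted p 0.00380). Ctsb, the gene of cathepsin B, was at 816 to 860 and 932 to 1089 CPM and was not called (edgeR adjusted p 0.0533). Ctse, an aspartic protease gene of erythroid and immune cells, was the next most abundant per length and was not called either (log2 fold change -0.14, adjusted p 0.450). Mmp9, a matrix metalloproteinase gene of osteoclasts and neutrophils, overlapped, at -0.06 on the log2 scale (adjusted p 0.823, edgeR). The count was 3 without non-radiated library 1 or 2, 2 without radiated library 1 and 0 under library totals alone. Macrophages are rich in these proteases, and of 12 of their markers 6 were called higher and 2 lower (4 and 1 without non-radiated library 2), none was at 0 in all libraries, and their sum ran from 2541 to 2910 CPM in non-radiated and 2602 to 3055 CPM in radiated libraries; their part was not tested.

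The relatives of Car2 moved in both directions. Of 15 other carbonic anhydrase genes 10 were tested, 3 rose and 1 fell, a share of 40.0% (median 0.23). Car1, the erythroid paralog next to Car2, fell from 247, 275 and 190 CPM to 157, 166 and 128 CPM (edgeR log2 fold change -0.66, SE 0.14, adjusted p 0.0197). Car3, abundant in fat and slow muscle, rose from 68.3, 44.8 and 58.6 CPM to 149, 168 and 79.4 CPM (edgeR log2 fold change 1.20, SE 0.25, adjusted p 0.0199). The mitochondrial Car5b rose from 1.63 to 1.88 CPM to 3.50 to 4.78 CPM (log2 fold change 1.31, edgeR adjusted p 0.00193), and Car13 rose by 0.45 (edgeR adjusted p 0.0481), a call made in 3 of 13 alternatives, with an adjusted p of up to 0.185. Adipocyte markers rose in all 10 genes, with sums of 220, 205 and 217 CPM in the non-radiated and 881, 808 and 611 CPM in the radiated libraries. Summed skeletal muscle markers were at 192, 338 and 165 CPM and at 744, 2366 and 190 CPM, and 0 of 12 were called. The part of fat or muscle in these estimates was not tested. The count was 2 without non-radiated library 1 or 3, 1 on leaving out either non-radiated library 2 or radiated library 1, and 2 under library totals alone.

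Genes of ruffled-border transport and trafficking were mostly not called. Of 18 tested, 2 rose and 1 fell, a share of 16.7% against 7.8% of all genes (median 0.10). Slc37a2, which encodes a sugar-phosphate transporter of osteoclast lysosomes, rose from 84.3, 74.1 and 94.6 CPM to 115, 102 and 109 CPM (edgeR log2 fold change 0.37, SE 0.09, adjusted p 0.0334), and Acp2, a lysosomal acid phosphatase gene, by 0.32 (edgeR adjusted p 0.0156). Rab27a, a vesicle transport gene, fell by 0.34 on the log2 scale (edgeR adjusted p 0.0103). The most abundant per length, Lamp1, Rab7 and Clcn3, had log2 fold changes of 0.13, -0.06 and -0.16 and were not called (edgeR adjusted p 0.255, 0.511 and 0.165). The count was 1 without non-radiated library 2 or radiated library 1, 5 without non-radiated library 3 and 0 under library totals alone.

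Of 16 tested genes of attachment and fusion, 8 fell and none was called higher, although 5 of the 16 had positive estimates. These 8 of 16 stood against 7.8% of all genes called, and the median log2 fold change was -0.23, against 0.00 over all genes. Itgb3, the beta-3 integrin gene shared by osteoclasts and platelets, fell from 631, 619 and 661 CPM to 301, 309 and 288 CPM (edgeR log2 fold change -1.09, SE 0.06, adjusted p 1.43e-05). Its osteoclast partner Itgav was not called, at 0.21 on the log2 scale (adjusted p 0.246, edgeR). Cd9, Tspan7, Fermt3 and Cd44, genes of 2 tetraspanins, an integrin activator and a matrix receptor, fell by 0.67, 0.63, 0.48 and 0.25 on the log2 scale, and Vav3 fell by 0.30. The remaining called genes, Src and Dock5, had log2 fold changes of -0.44 and -0.21 (edgeR adjusted p 0.0301 and 0.0402). Megakaryocytes express Itgb3, Cd9 and Fermt3 as well, and their summed markers ran from 1061 to 1133 CPM in non-radiated and 363 to 430 CPM in radiated libraries, with none at 0; their part in these falls was not tested. Cd47 was among the 3 most abundant per length, with Itgb3 and Fermt3, and was not called (log2 fold change -0.20, edgeR adjusted p 0.150). The count was 4 on leaving out non-radiated or radiated library 1, 5 on leaving out non-radiated library 2 or radiated library 3, and 1 under library totals alone, where the list's median was -0.04 and that of all genes 0.19.

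Regulators of osteoclast formation were called in 2 of 19 cases, both higher, a share of 10.5% that is near the 7.8% of all genes (median log2 fold change 0.13). Csf1, the gene of M-CSF, rose from 46.6, 46.6 and 55.8 CPM to 77.2, 69.5 and 71.7 CPM (edgeR log2 fold change 0.55, SE 0.08, adjusted p 0.00378, called in all 13 alternatives). Tnfrsf11a, the gene of the receptor RANK, rose from 17.4, 17.1 and 19.8 CPM to 26.6, 22.3 and 26.2 CPM (edgeR log2 fold change 0.47, SE 0.09, adjusted p 0.0178, called in 9 of 13). Tnfsf11, the gene of RANK ligand, was not called (log2 fold change -0.10, edgeR adjusted p 0.849). Neither was Tnfrsf11b, the gene of osteoprotegerin (log2 fold change -0.20, edgeR adjusted p 0.512). The most abundant per length, the adaptor genes Tyrobp and Fcer1g and the M-CSF receptor gene Csf1r, had log2 fold changes of -0.26, -0.08 and 0.30 (edgeR adjusted p 0.0941, 0.539 and 0.0855). With the replicate block 5 of the 19 were called, 4 higher and 1 lower. Leaving out radiated library 1, or non-radiated library 1 or 2, gave 1 call, and 4 without non-radiated library 3.

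**Figure D5:**
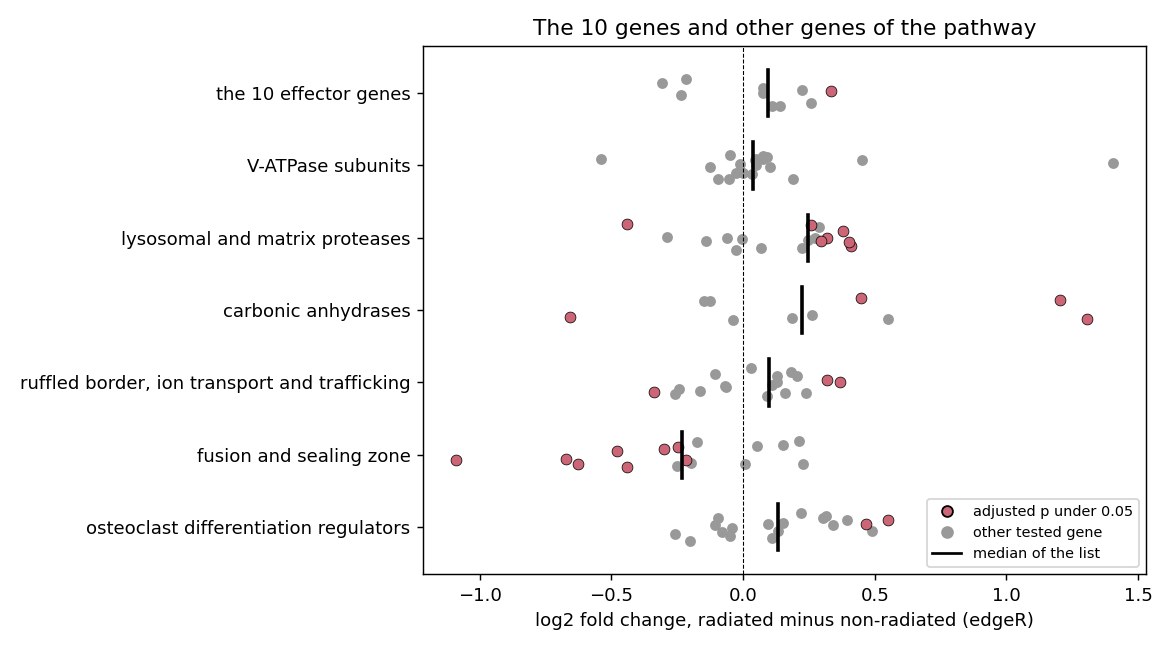
Log2 fold changes (radiated minus non-radiated, horizontal axis) of the 10 effector genes and of the tested genes of 6 other lists; red points have an adjusted p under 0.05 and black bars are list medians. The 8 red points of the fusion and sealing list lie to the left of 0, the V-ATPase list has no red point, and Atp6v0d2 is the red point of the top row.

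The genes whose profiles came closest to Ctsk and Acp5 were found among 15579 others with a mean of at least 1 CPM, by the root mean square difference of centred log2 CPM over the 6 libraries. For Ctsk they were Nyap2, B3galt2, Tmem47, Ocstamp and Cd109, at 0.061 to 0.063 log2 units. Ocstamp thus stood among the 5 nearest profiles to Ctsk. For Acp5 they were Gm25549, Fkbp10, Bmp1, Mir546 and Vasn, at 0.046 to 0.052 log2 units. With 6 libraries this is a description of these profiles, which share the low value of non-radiated library 2.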

How the data were processed

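Gene counts from 6 femur libraries were analysed. The authors' deposited table gives raw counts and RPKM per library and gene, per the file headers. Per the submitters' processing notes the tools were bcl2fastq, STAR 2.5.2b, Subread and featureCounts, and the build mm10; the annotation and the strand setting are not given in the sources used here. The deposited RPKM divide by a constant that is 5.55 to 6.91 times the sum of gene counts in a library, so they entered no test.

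Low genes were removed by filterByExpr (at least 10 counts, 15 in total), and counts were scaled by TMM and tested with glmQLFit and glmQLFTest of edgeR 4.0.16 in R 4.3.3, with the group as the only term. The fit was tested on simulated counts, where 7 of 18372 unchanged genes were called. The simulation gave every gene the same dispersion, made the libraries independent and used changes larger than those of the effectors. It therefore does not measure power or error rates for these genes. P-values were adjusted over all 18757 genes tested, and the biological coefficient of variation was 12.9%. The 95% intervals of fold changes use the standard error from F and the test's degrees of freedom. Profiles used log2(CPM + 0.5). Ratios were compared by permutation with scipy 1.17.1. Alternatives were DESeq2 1.42.0 (size factors, and its Wald test), library totals alone, other filters, limma-voom (limma 3.58.1), the replicate block and leaving out each library.

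The genes, the lists (224 entries, 222 found by symbol and 2 by gene ID) and the rule for named genes were chosen with earlier results of these data known. The rule took the 10 effectors; in each list of pathway genes up to 6 called genes with the smallest p, or the 2 with the smallest p where none was called, and the 3 most abundant per length; the most abundant gene of each marker list; the 5 nearest profiles to Ctsk and Acp5; and genes overlapping an effector. Named outside it, after their values were seen, were Atp6v0d1, Atp6v0a1, Mmp9, Itgav, Src, Dock5, Pax7, Myf5, Mmp14, Ctso, Tnfsf11 and Tnfrsf11b.

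Promoters were matched by symbol to RefSeq windows for 6 of the 10 genes (12 starts). Replicates within a group differed by more than sampling noise (chi-square per degree of freedom 17.8 to 631). Both groups carry the numbers 1 to 3. Deviations from the group means correlated at 0.186, 0.349 and 0.204 across genes for the same numbers, and at -0.221 to 0.020 for different ones. The numbers were therefore treated as pairs, but only in the replicate block and in the differences within a number. The main edgeR fit and the permutation tests of ratios were unpaired. The labels do not say that the numbers mark a mouse.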

Additional observations from a re-analysis of the deposited data

How the results depend on the processing

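Fold changes rest on TMM and are relative to the bulk of genes; under library totals alone, into which AY036118 enters, all genes had a median of 0.19 (log2), and 85.4% of calls were higher against 58.5% with TMM. Under that scaling the log2 fold changes of Ostm1, Car2 and Calcr were -0.05, -0.01 and -0.12, and those of the other 7 effectors 0.22 to 0.51. The 1463 genes called became 764 to 1376 when a library was left out. Among the effectors, the 1 call became 0 under library totals alone, 3 with no filter, 4 with DESeq2's Wald test and 0 to 4 with a library left out.

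With no filter the calls were 1 for V-ATPase, 11 for proteases and 7 for regulators. With DESeq2's Wald test they were 11 for proteases and 6 for regulators. With library totals alone they were 1 for V-ATPase, 0 for proteases, 2 for carbonic anhydrases, 0 for transport, 1 for fusion and 1 for regulators. With the replicate block they were 1 for V-ATPase and 5 for regulators; the block changed no other pathway list's count by over 1.5 times and no call among the 10 effectors. With a library left out the counts ran from 2 to 7 for proteases, 1 to 3 for carbonic anhydrases, 1 to 5 for transport, 4 to 6 for fusion and 1 to 4 for regulators, and stayed at 0 for V-ATPase. In each case the cause was not tested.

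With a library left out the log2 fold changes ran from -0.07 to 0.23 for Acp5, -0.08 to 0.21 for Ctsk, -0.12 to 0.31 for Dcstamp and -0.14 to 0.24 for Ocstamp. The negative values were -0.066 (Acp5), -0.081 (Ctsk), -0.12 (Dcstamp) and -0.14 (Ocstamp) without non-radiated library 2, and -0.04 (Acp5) and -0.02 (Ocstamp) without radiated library 1. The other 6 effectors kept their sign in every alternative that gave a value; Calcr gave none at a mean of at least 1 CPM. For Calcr (26 to 56 counts) and Ocstamp (63 to 194 counts) depth limits what can be detected.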

Other observations

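Marker lists of other cell types gave the following values beside those in the report. Of 12 neutrophil markers all had negative estimates and 1 was called lower (median log2 fold change -0.34), against 11 by DESeq2's Wald test, 8 with no filter, 5 with the replicate block, 3 without non-radiated library 1 or 3, 2 without radiated library 2 and 0 under library totals alone. The most abundant, S100a9, an antimicrobial protein gene, was at 4982 ± 897 CPM in non-radiated and 3517 ± 312 CPM in radiated libraries (mean ± SD, n = 3 each; edgeR adjusted p 0.0627). Of 12 osteoblast markers 4 were called lower (median -0.49), against 8 with no filter, 7 by DESeq2's Wald test, 7 with the replicate block, 7 without non-radiated library 2 and 2 under library totals alone. The most abundant erythroid and macrophage markers, Slc4a1 and Lyz2, were at 3023 ± 225 and 1747 ± 104 CPM in non-radiated and at 2857 ± 223 and 1591 ± 167 CPM in radiated libraries, and neither was called (edgeR adjusted p 0.699 and 0.479). Ppbp, a platelet chemokine gene, fell by 1.58 on the log2 scale, and Scd1, a fat synthesis gene, and Ebf1, a B cell transcription factor gene, rose by 2.26 and 0.84 (edgeR adjusted p 1.53e-05, 2.97e-05 and 0.000791). The 12 skeletal muscle markers had positive estimates, with 0 called by edgeR and by DESeq2's Wald test (12 at an unadjusted p under 0.05), but 9 were called with the replicate block, 12 with no filter, 12 under library totals alone, 10 without radiated library 3 and 1 without radiated library 1; Myh4, a fast muscle myosin gene, was at 62.9 to 131 CPM in non-radiated and 65.8 to 898 CPM in radiated libraries. Col2a1 of cartilage and Vcam1 were not called (edgeR adjusted p 0.446 and 0.221).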
